A study of Homo sapiens with 4 samples.

Results

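The DNAJ genes encode the J-domain co-chaperones, and they were examined in prostate cancer cells after knockdown of the long non-coding RNA LOC730101. Members were taken from the count table by name, as DNAJA, DNAJB or DNAJC followed by a number, without pseudogenes. This gave 45 of the 60606 genes in the table: 4 DNAJA, 13 DNAJB and 28 DNAJC genes. The cells were DaroR cells, a line derived from LNCaP, which is an androgen receptor positive prostate cancer line, and selected for growth in the antiandrogen darolutamide. They were transfected with control siRNA (siControl, 2 libraries) or with pooled siRNAs that target LOC730101 (siLOC730101, 2 libraries). The RNA was polyA selected. One resistant line and one siRNA pool were used, so effects of the line or of the pool cannot be told apart from those of LOC730101. The labels give no separate cultures for the replicates, and p-values then measure the spread between these libraries.

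J-domain proteins bind HSP70 chaperones and stimulate their ATPase, so that HSP70 closes on an unfolded client. The client is released when a nucleotide exchange factor opens HSP70 again. Different J-domain proteins bring HSP70 to different places: newly made chains at the ribosome, proteins that enter the endoplasmic reticulum (ER) or the mitochondrion, clathrin coats, or damaged proteins on the way to the proteasome. DNAJA and DNAJB proteins resemble the bacterial DnaJ along more of their length, while DNAJC proteins share little beyond the J domain. In the prostate, HSP70 and HSP90 with their co-chaperones also fold the androgen receptor.

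The libraries held 39213498 to 53368158 counts, and both siLOC730101 libraries were smaller than both siControl libraries. Of the genes in the table, 19349 passed the expression filter of edgeR and were tested. LOC730101, listed by its gene identifier ENSG00000216775, was counted 2560 and 2370 times in the siControl libraries, against 633 and 680 times in the siLOC730101 libraries. The knockdown had a log2 fold change (log2FC, siLOC730101 against siControl) of -1.56 (SE 0.12, adjusted p = 4.34e-06 by edgeR). All 9 LNCaP markers examined had at least 10 CPM in every library, where CPM is the count scaled to the normalized library size. The 3 basal and 3 immune markers were each under 1 CPM, as were 3 of 4 neuroendocrine markers. Of 4 stromal markers, 1 was under 1 CPM and 1 had at least 10 CPM in every library, and their sum was 16.9 to 21.1 CPM in siControl and 18.7 to 19.1 CPM in siLOC730101. Transcripts of the mitochondrial genome made up 3.09% and 3.17% of the counts in siControl and 2.64% and 2.76% in siLOC730101; their part in the results below was not tested. A single gene cannot reach a two-sided p under 0.333 in an exact permutation test of 2 against 2 libraries, so the model across all genes was used.

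The promoter of DNAJC3, the one DNAJ gene that passed the adjusted test, is shown first, on the plus strand at chr13:95676889-95677188 (RefSeq, GRCh38.p14). It runs from 250 bases before to 50 bases after the annotated start. The capitals mark ATTGG, the reverse complement of a CCAAT box, which begins 75 bases before the start.

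DNAJC3: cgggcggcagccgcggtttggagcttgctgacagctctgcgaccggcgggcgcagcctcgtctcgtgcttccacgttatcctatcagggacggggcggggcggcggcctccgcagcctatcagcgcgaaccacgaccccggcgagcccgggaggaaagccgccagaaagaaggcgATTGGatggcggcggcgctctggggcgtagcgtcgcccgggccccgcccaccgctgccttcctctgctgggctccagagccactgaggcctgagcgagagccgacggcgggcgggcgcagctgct

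This window overlaps the first bases of DNAJC3-DT, a non-coding RNA transcribed in the other direction, which starts 166 bases before DNAJC3. The promoters of DNAJC10 (chr2:182716007-182716306) and DNAJC25 (chr9:111631084-111631383), both on the plus strand, are shown because these ER members had the next lowest log2 fold changes in their group and their windows held TGACGTG or its reverse complement CACGTCA, the core of an unfolded protein response element, marked in capitals.

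DNAJC10: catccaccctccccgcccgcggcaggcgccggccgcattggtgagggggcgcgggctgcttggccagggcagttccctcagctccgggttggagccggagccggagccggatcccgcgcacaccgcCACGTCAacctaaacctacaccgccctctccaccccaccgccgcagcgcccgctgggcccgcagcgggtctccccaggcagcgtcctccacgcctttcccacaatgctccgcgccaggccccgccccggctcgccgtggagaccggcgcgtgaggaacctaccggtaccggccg
DNAJC25: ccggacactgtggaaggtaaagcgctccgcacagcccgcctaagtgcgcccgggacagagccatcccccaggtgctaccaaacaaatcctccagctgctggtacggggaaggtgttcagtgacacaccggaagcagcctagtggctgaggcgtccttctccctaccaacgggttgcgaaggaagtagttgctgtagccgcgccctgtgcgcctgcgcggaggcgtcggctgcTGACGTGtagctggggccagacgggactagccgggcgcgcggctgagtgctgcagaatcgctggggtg

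TGACGTG, read on both strands, was found in 2 of the 40 DNAJ promoters that could be matched and in 2% of all 27305 promoters. A CCAAT box, read on both strands, was found in 17 of the 40 and in 35.7% of all promoters. The full ER stress response element, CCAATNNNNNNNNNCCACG on either strand, was in 0 of the 40 and in 0.0806% of all promoters. Only exact matches were searched, so a lack of the element in other forms is not shown. A heat shock element with 3 units in alternate direction (GAANNTTCNNGAA or TTCNNGAANNTTC) was found in 2 of the 40, DNAJA1 and DNAJB6, and in 0.487% of all promoters. Both belong to the cytosolic HSP40 proteins, and 37 bases around each element are shown, both on the plus strand, at chr9:33025264-33025300 for DNAJA1 and chr7:157336861-157336897 for DNAJB6, with the element in capitals. That of DNAJA1 begins 3 bases after the start, and that of DNAJB6 131 bases before it. These matches describe the sequence and say nothing of binding.

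DNAJA1: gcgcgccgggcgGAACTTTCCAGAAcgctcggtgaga
DNAJB6: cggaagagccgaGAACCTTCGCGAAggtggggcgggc

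Most DNAJ genes were expressed in DaroR cells. Of the 45 genes, 41 were tested, and 37 had a mean normalized count above 50. DNAJC5G, DNAJB3 and DNAJB8 had 0 counts in all 4 libraries, where 3 counts, the limit that a count of 0 allows, correspond to 0.0555 to 0.0790 CPM. DNAJB13 had 2 counts in siControl replicate 1 and 0 in the others. DNAJB3, DNAJB8, DNAJB13 and DNAJB7 belong to the genes known mainly from testis, and DNAJB7 was tested on 12, 14, 5 and 19 counts. DNAJB7 lies on the strand opposite to XPNPEP3 and shares 23.9% of its exon length with it, so that these few reads are uncertain. DNAJC5B, DNAJC28 and DNAJA4 were the other tested members with a mean normalized count under 50, at 0.335, 0.545 and 1.15 CPM in siControl.

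**Figure D1:**
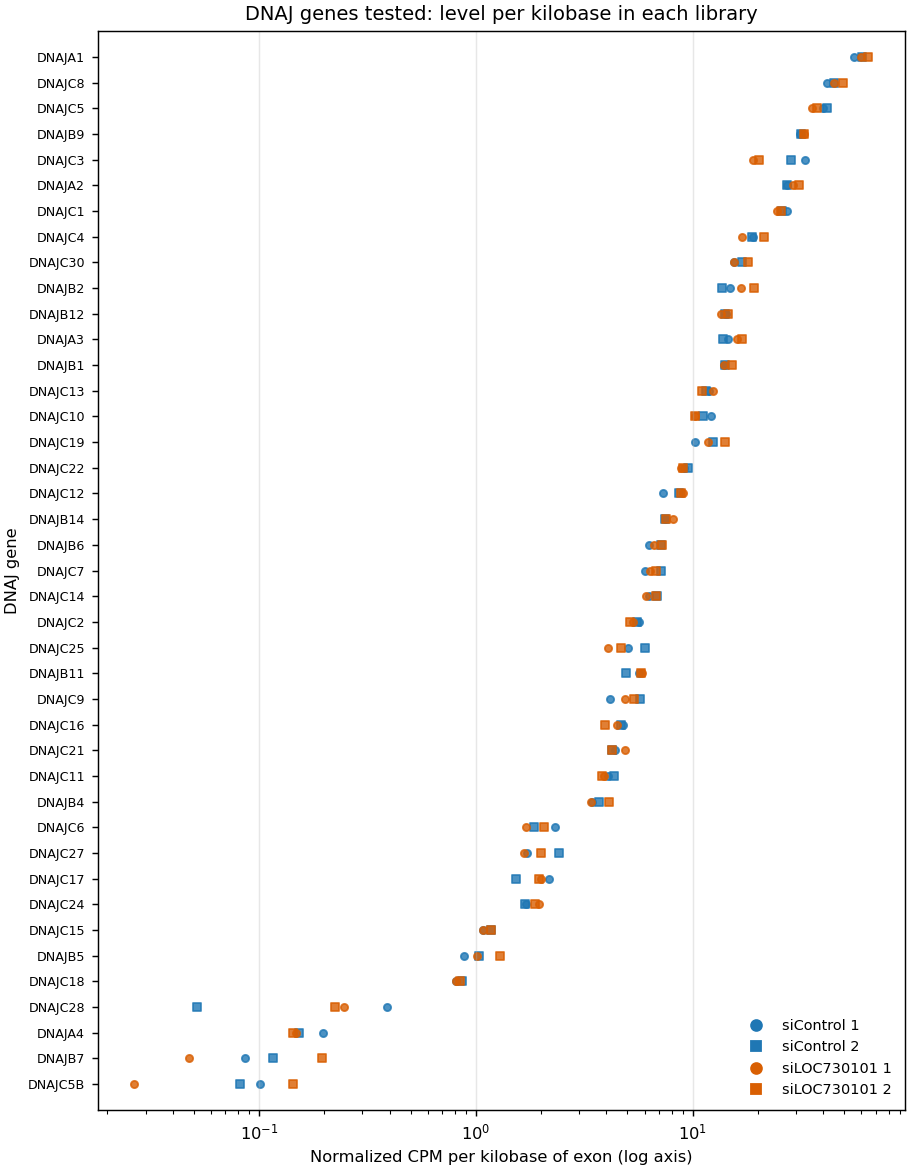
Normalized CPM per kilobase of summed exon length (log axis) for the 41 DNAJ genes tested, one row per gene, ordered by the siControl mean. Blue marks are siControl and orange marks siLOC730101, circles replicate 1 and squares replicate 2; the orange marks of DNAJC3 lie left of the blue ones, while those of most genes lie among them.

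Levels were compared between genes as normalized CPM per kilobase of summed exon length. The highest in siControl was DNAJA1, a general cytosolic HSP40, at 58.0 ± 3.60 (SD, n = 2). It was followed by DNAJC8, a spliceosome protein, at 43.0 ± 2.30 (SD, n = 2) and DNAJC5, a vesicle protein of the secretory pathway, at 40.8 ± 1.35 (SD, n = 2). DNAJC8 and DNAJC5 differed by less than the sum of their SDs, as did the next neighbours, DNAJB9 at 31.4 ± 0.406 (SD, n = 2) and DNAJC3 at 30.7 ± 3.04 (SD, n = 2), both cofactors of HSP70 in the ER lumen. DNAJA2, the other main cytosolic DNAJA protein, stood at 27.3 ± 0.0658 (SD, n = 2). DNAJC4 led the smaller DNAJC proteins without a place in the other groups at 18.9 ± 0.123 (SD, n = 2). DNAJC30, which acts in mitochondria, had 16.2 ± 1.07 (SD, n = 2), and DNAJC7, which links HSP70 to HSP90, had 6.58 ± 0.793 (SD, n = 2). The summed exon length covers every annotated transcript and is long for some genes. With the length of the canonical transcript, an alternative chosen after seeing the data, DNAJC8 came first with 70.6 and DNAJA1 second with 66.7, while DNAJB1, the heat-inducible HSP40, moved from rank 13 to rank 3 and DNAJC7 from rank 21 to rank 4. In the other direction, DNAJC3 moved from rank 5 to rank 13, DNAJC30 from 9 to 18, DNAJB9 from 4 to 11 and DNAJC5 from 3 to 7.

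After siLOC730101, DNAJC3 fell and no other DNAJ gene passed the adjusted test. The DNAJ genes lower at an adjusted p under 0.05 were 1 of 41, beside 0.0724% of all genes tested, and those higher were 0 of 41, beside 0.212% of all genes. Without adjustment, at a p under 0.05, 2 genes (4.88%) were higher, DNAJB2 and DNAJA3, beside 6.43% of all genes, and 2 (4.88%) were lower, DNAJC3 and DNAJC10, beside 4.39%. DESeq2 gave 1 gene higher, DNAJB2, and 1 lower at the adjusted threshold. Both siLOC730101 libraries lay above both siControl libraries in 9 DNAJ genes (22.0%) and below them in 10 (24.4%), close to the 21.3% and 20.5% of all genes. The median log2 fold change was 0.047 for the DNAJ genes and -0.0021 for all genes tested. In 37 genes with a mean normalized count above 50, the median absolute log2 fold change between the groups was 0.098. The median absolute log2 ratio between replicates was 0.11 in siControl and 0.11 in siLOC730101. The fold change compares means of 2 libraries and the ratio single libraries, which vary more, so these medians are not directly comparable. In 32 of these 37 genes the absolute log2 fold change was under 0.2, and DNAJC3 had the largest.

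**Figure D2:**
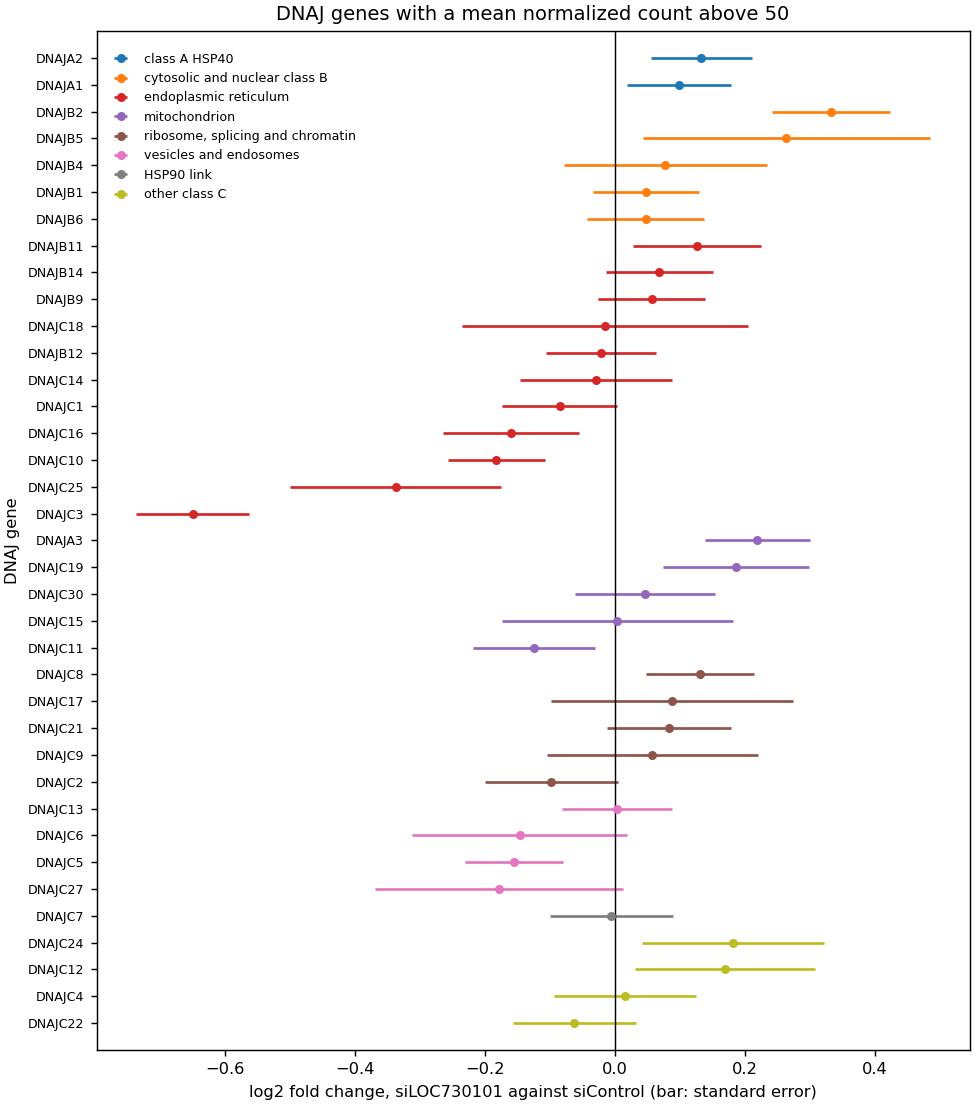
Log2 fold change of siLOC730101 against siControl for the 37 DNAJ genes with a mean normalized count above 50, grouped by place or role, with the standard error as a bar. DNAJC3, at -0.65, stands apart at the left; DNAJC25 is next at -0.34, and DNAJB2 is farthest right at 0.33.

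DNAJC3 is an HSP70 co-chaperone of the ER lumen, also known as an inhibitor of kinases that phosphorylate the translation factor eIF2. It lies on the plus strand of chromosome 13 from 95677139 to 95794988 (GRCh38). Reads counted for DNAJC3 numbered 9915 and 7462 in siControl, against 4348 and 4283 in siLOC730101. The normalized CPM was 183 and 159 in siControl and 106 and 113 in siLOC730101. Both siLOC730101 libraries were thus below both siControl libraries, and the gap between the groups was larger than the difference within either. The means were 171 ± 17.0 (SD, n = 2) and 109 ± 4.94 (SD, n = 2), a reduction of 36.2%, which gives a log2FC of -0.65 ± 0.086 (SE), with adjusted p = 0.00266 by edgeR. In bulk RNA, fewer cells with the transcript and less of it per cell cannot be told apart. It had an adjusted p under 0.05 in all 14 alternatives that were run, with log2 fold changes from -0.74 to -0.54 and adjusted p-values from 2.43e-13 to 0.00475. Both ends of the log2FC range came from leaving out 1 siControl library. Among the 14 genes lower at the adjusted threshold, DNAJC3 ranked 6 by log2FC.

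No other gene in the table shares exon bases with DNAJC3, so reads of an overlapping gene do not enter its count. DNAJC3-DT, which starts beside it on the other strand, had 30.6 and 30.04 CPM in siControl and 27.8 and 25.5 CPM in siLOC730101 (log2FC -0.18 ± 0.11 (SE), adjusted p = 0.599 by edgeR). UGGT2, which helps to check the folding of glycoproteins in the ER, lies on the other strand with its nearer end 6.59 kb beyond DNAJC3, and its groups overlapped (log2FC -0.12 ± 0.11 (SE), adjusted p = 0.783 by edgeR).

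The other ER members did not share the size of this change. DNAJC10 is a disulfide reductase that helps to degrade misfolded ER proteins. It had 304 and 280 CPM in siControl and 258 and 257 CPM in siLOC730101, without overlap (log2FC -0.18 ± 0.075 (SE), adjusted p = 0.369 by edgeR). Without siControl replicate 1 its log2FC was -0.12. DNAJC25, an ER membrane protein, had 13.1 and 15.7 CPM in siControl and 10.6 and 12.1 CPM in siLOC730101. Its groups did not overlap, but the gap was smaller than the difference within siControl (log2FC -0.34 ± 0.16 (SE), adjusted p = 0.476 by edgeR). Without siControl replicate 2 its log2FC was -0.20. DNAJC16, also of the ER membrane, had 40.7 and 39.8 CPM in siControl and 38.2 and 33.8 CPM in siLOC730101 (log2FC -0.16 ± 0.11 (SE), adjusted p = 0.635 by edgeR). It moved to -0.24 without siLOC730101 replicate 1 and to -0.076 without siLOC730101 replicate 2. DNAJB9, a repressor of the ER stress sensor IRE1, had 78.9 and 80.4 CPM in siControl and 82.6 and 83.2 CPM in siLOC730101, on the other side (log2FC 0.057 ± 0.082 (SE), adjusted p = 0.876 by edgeR).

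Of the 11 ER members, all tested, 8 had a log2 fold change below 0 and 3 above 0, and 1 passed the adjusted test. Of all genes tested, 49.6% lay above 0. The groups did not overlap in 5 lower members (45.5%, beside 20.5% of all genes) and 3 higher members (27.3%, beside 21.3%). DNAJB11, a cofactor of the ER chaperone HSPA5, was among the 3 above 0, at 0.13 (adjusted p = 0.711 by edgeR). DNAJC3, DNAJB9 and DNAJB11 are all known targets of the unfolded protein response, at -0.65, 0.057 and 0.13. DNAJC10 (-0.18) and the ER chaperones HSPA5 (-0.12), HSP90B1 (-0.10) and HYOU1 (-0.11) were lower without overlap. SIL1, an ER exchange factor, overlapped between the groups (0.012). Of all these, only DNAJC3 passed the adjusted test. A part of this response in these values was not tested. The summed level of the ER members was 948 and 895 CPM in siControl and 822 and 828 CPM in siLOC730101. DNAJC3 made up 19.3% and 17.8% of this sum in siControl and 12.9% and 13.6% in siLOC730101. Without DNAJC3 the sums were 765 and 736 CPM in siControl and 716 and 715 CPM in siLOC730101.

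**Figure D3:**
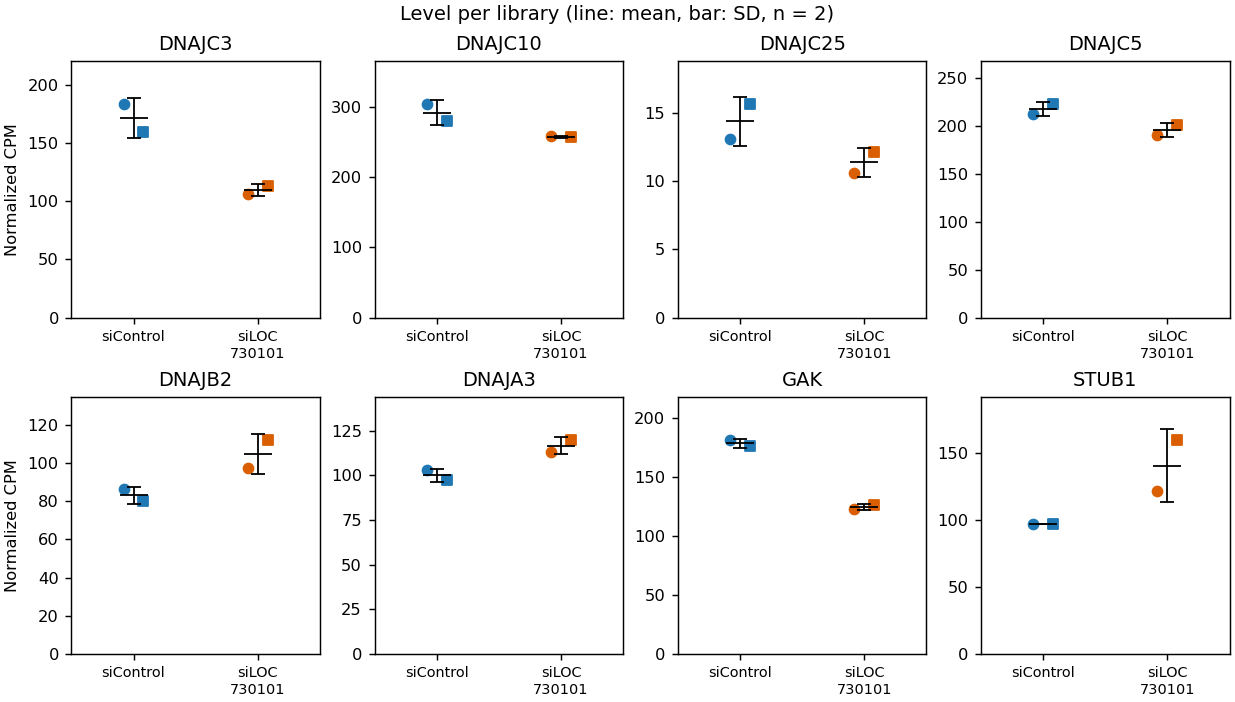
Normalized CPM in each library for 6 DNAJ genes and for the partner genes GAK and STUB1, with siControl in blue, siLOC730101 in orange, circles for replicate 1 and squares for replicate 2. Black lines are the mean and SD of 2 libraries; the groups do not overlap in any of the 8 panels, and the gap is widest against the spread in GAK.

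No cytosolic member passed the adjusted test in the analysis as reported. The DNAJB proteins among them lay above 0, as did 2 of 3 DNAJA proteins. DNAJA4, the third, was weakly expressed, at 1.29 and 1.004 CPM in siControl and 0.974 and 0.948 CPM in siLOC730101, without overlap (log2FC -0.26 ± 0.50 (SE), adjusted p = 0.914 by edgeR). DNAJB2 carries ubiquitin-interacting motifs and passes HSP70 clients to the proteasome. It had 86.5 and 80.0 CPM in siControl and 97.5 and 112 CPM in siLOC730101, where replicate 2 was the higher (log2FC 0.33 ± 0.091 (SE), adjusted p = 0.148 by edgeR). DNAJB2 passed the adjusted threshold in 4 of 14 alternatives, with DESeq2 (adjusted p = 0.0364), without an expression filter (0.0247, edgeR), with the replicate number as a block (0.00542, edgeR) and without siLOC730101 replicate 1 (8.91e-05, edgeR), and its adjusted p ranged up to 0.538 over the others. Without siLOC730101 replicate 2 its log2 fold change was 0.23. All 5 cytosolic and nuclear DNAJB members had a log2 fold change above 0, beside 49.6% of all genes, and in 4 of the 5 the groups overlapped. It was 0.048 for both DNAJB1 and DNAJB6, the latter a suppressor of protein aggregation. DNAJA2 had 135 and 135 CPM in siControl and 144 and 153 CPM in siLOC730101 (log2FC 0.13 ± 0.077 (SE), adjusted p = 0.575 by edgeR). DNAJA1 had 148 and 162 CPM in siControl and 160 and 171 CPM in siLOC730101, so that its groups overlapped (log2FC 0.099 ± 0.080 (SE), adjusted p = 0.726 by edgeR).

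Among 6 mitochondrial members, 5 had a log2 fold change above 0, beside 49.6% of all genes. These include DNAJC15 (0.0038 ± 0.18 (SE)), DNAJC30 (0.047 ± 0.11 (SE)) and the weakly expressed DNAJC28 (0.081 ± 0.84 (SE)), all within their standard error of 0. DNAJA3, the mitochondrial DNAJA protein, had 103 and 97.5 CPM in siControl and 113 and 120 CPM in siLOC730101 (log2FC 0.22 ± 0.081 (SE), adjusted p = 0.300 by edgeR). DNAJC19, a part of the motor that pulls proteins into the matrix, had 50.02 and 60.8 CPM in siControl and 57.5 and 68.7 CPM in siLOC730101. These groups overlapped, and replicate 2 was the higher in each (log2FC 0.19 ± 0.11 (SE), adjusted p = 0.589 by edgeR). Without siLOC730101 replicate 1, DNAJA3 (adjusted p = 0.0445 by edgeR) and DNAJC19 (adjusted p = 0.0466 by edgeR) passed the threshold, the one alternative in which either did. The log2FC of DNAJC19 was 0.32 in that case, but 0.052 without siLOC730101 replicate 2 (adjusted p = 0.989 by edgeR) and 0.054 without siControl replicate 1 (adjusted p = 0.943 by edgeR). DNAJC11, a protein of the mitochondrial membranes, was the member below 0, at 49.7 and 52.9 CPM in siControl and 47.4 and 46.7 CPM in siLOC730101 (log2FC -0.12 ± 0.094 (SE), adjusted p = 0.702 by edgeR).

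The members that act at ribosomes, the spliceosome and chromatin passed no threshold. DNAJC8 had 120 and 129.2 CPM in siControl and 129.7 and 143 CPM in siLOC730101, values that barely separated (log2FC 0.13 ± 0.083 (SE), adjusted p = 0.619 by edgeR). DNAJC2, which binds the ribosome, DNAJC9, a histone chaperone, DNAJC17 and DNAJC21 had log2 fold changes from -0.098 to 0.088. Of the exon length of DNAJC9, 56.5% is shared with FAM149B1 on the opposite strand, and the counting command has no strand option, so its count is uncertain. In all, 24 of the 45 DNAJ genes share exon bases with another gene of the table, 19 of them with a gene on the opposite strand. DNAJB2, DNAJA3, DNAJC5 and DNAJA2 do not.

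In the group of vesicles and endosomes, 4 of 5 tested members had a log2 fold change below 0. DNAJC5 had 213 and 223 CPM in siControl and 190 and 201 CPM in siLOC730101, without overlap (log2FC -0.15 ± 0.075 (SE), adjusted p = 0.485 by edgeR). DNAJC6, the neuronal auxilin that uncoats clathrin vesicles, overlapped between the groups (log2FC -0.15 ± 0.17 (SE), adjusted p = 0.822 by edgeR). DNAJC13, an endosomal protein, had a log2 fold change of 0.0041. In the remaining groups DNAJC7 had -0.0054 and DNAJC4 had 0.016, and both changed sign when single libraries were left out. DNAJC24, of the diphthamide synthesis pathway, had 14.6 and 14.4 CPM in siControl and 16.7 and 16.1 CPM in siLOC730101 (log2FC 0.18 ± 0.14 (SE), adjusted p = 0.706 by edgeR).

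After TMM scaling, the summed level of the 45 DNAJ genes overlapped between the groups, at 2604 and 2621 CPM in siControl and 2526 and 2641 CPM in siLOC730101. As a share of all counts, before the TMM scaling, it was 0.264% and 0.265% in siControl and 0.254% and 0.256% in siLOC730101, without overlap. Without DNAJC3 the shares barely separated, at 0.2452% and 0.2490% in siControl and 0.2432% and 0.2448% in siLOC730101. Whether the sum separates the groups thus depends on the scaling.

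The genes that work with the DNAJ proteins were examined as 5 lists with 43 genes, of which 40 were tested. GAK fell, STUB1 rose, and no other partner gene passed the adjusted test. GAK is the auxilin of most tissues and itself a J-domain protein, though not named as one. It had 181 and 176 CPM in siControl and 123 and 126 CPM in siLOC730101 (log2FC -0.52 ± 0.076 (SE), adjusted p = 0.00516 by edgeR). STUB1, a ubiquitin ligase that binds HSP70 and HSP90, had 96.8 CPM in both siControl libraries and 121 and 160 CPM in siLOC730101. The log2FC was 0.54 ± 0.11 (SE), with adjusted p = 0.0482 by edgeR. It was 0.32 without siLOC730101 replicate 2 (adjusted p = 0.0419 by edgeR), and its adjusted p was 0.0576 with DESeq2 size factors and 0.0522 with upper-quartile factors.

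SEC63 and HSCB, J-domain genes under other names, did not pass the test. SEC63, which works at the translocon of the ER, had a log2FC of -0.067 (adjusted p = 0.804 by edgeR). HSCB, of iron-sulfur cluster assembly, had 0.078 (adjusted p = 0.924 by edgeR). The lowest log2FC among the J-domain genes described here were those of DNAJC3 and GAK, on chromosomes 13 and 4.

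The HSP70 genes that the DNAJ proteins serve differed little. HSPA8, the constitutive HSP70 of the cytosol, had 2278 and 2346 CPM in siControl and 2396 and 2477 CPM in siLOC730101 (log2FC 0.076 ± 0.062 (SE), adjusted p = 0.729 by edgeR). HSPA5, that of the ER and the partner of DNAJC3, had 756 and 698 CPM in siControl and 675 and 660 CPM in siLOC730101 (log2FC -0.12 ± 0.070 (SE), adjusted p = 0.563 by edgeR). HSPA9, that of mitochondria, overlapped between the groups, with log2FC -0.019 (adjusted p = 0.961 by edgeR). The heat-inducible genes HSPA1A and HSPA1B, which are near-identical, and HSPA1L were listed at 0 in all 4 libraries, so the level of these genes is not given by these counts. Of 16 HSP70 and HSP110 genes, 13 were tested and 0 passed the adjusted test in edgeR, 1 (7.69%), higher, passed at an unadjusted p under 0.05, beside 6.43% of all genes, and with DESeq2 0 passed the adjusted test. That one was HSPA12B, counted 9 and 0 times in siControl against 30 and 40 times in siLOC730101 (adjusted p = 0.222 by edgeR). An adjusted p was available for HSPA12B in 12 alternatives. Among those with all 4 libraries, it passed the adjusted threshold without an expression filter (adjusted p = 0.0288 by edgeR) and with the replicate block (adjusted p = 0.0353 by edgeR). Without siControl replicate 1, which leaves the siControl library with 0 counts, its log2 fold change was 8.23.

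Of the 9 nucleotide exchange factors, 0 passed the adjusted test in edgeR and in DESeq2, and 2 (22.2%), both higher, passed at an unadjusted p under 0.05, beside 6.43% of all genes. The lower p was that of GRPEL1, which serves the mitochondrial HSP70, with 63.8 and 56.7 CPM in siControl and 71.0 and 78.8 CPM in siLOC730101 (log2FC 0.31 ± 0.095 (SE), adjusted p = 0.185 by edgeR). GRPEL1 passed the adjusted threshold in 2 of 14 alternatives, with the replicate block (adjusted p = 0.0210 by edgeR) and without siLOC730101 replicate 1 (adjusted p = 0.00381 by edgeR). HSP90 and its co-chaperones had a log2 fold change above 0 in 10 of 12 genes, beside 49.6% of all genes, with a median of 0.12. Both siLOC730101 libraries lay above both siControl libraries in 7 of the 12 (58.3%), beside the 21.3% of all genes. The HSP90 genes HSP90AA1 (0.0096) and HSP90AB1 (0.015) overlapped between the groups. In STIP1 (223 and 249 CPM), AHSA1 (113 and 131 CPM) and FKBP4 (260 and 291 CPM), siLOC730101 replicate 2 was above replicate 1. In ST13 (472 and 463 CPM) it was below. STUB1 was the one of the 12 genes to pass the adjusted test. At an unadjusted p under 0.05 by edgeR, 3 of the 12 (25%) were higher, STUB1, AHSA1 and FKBP5, beside 6.43% of all genes. Lower at that threshold were 0, beside 4.39%. The heat shock factors HSF1 and HSF2 lay within 1 standard error of 0, at -0.024 and 0.016, with overlapping groups.

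**Figure D4:**
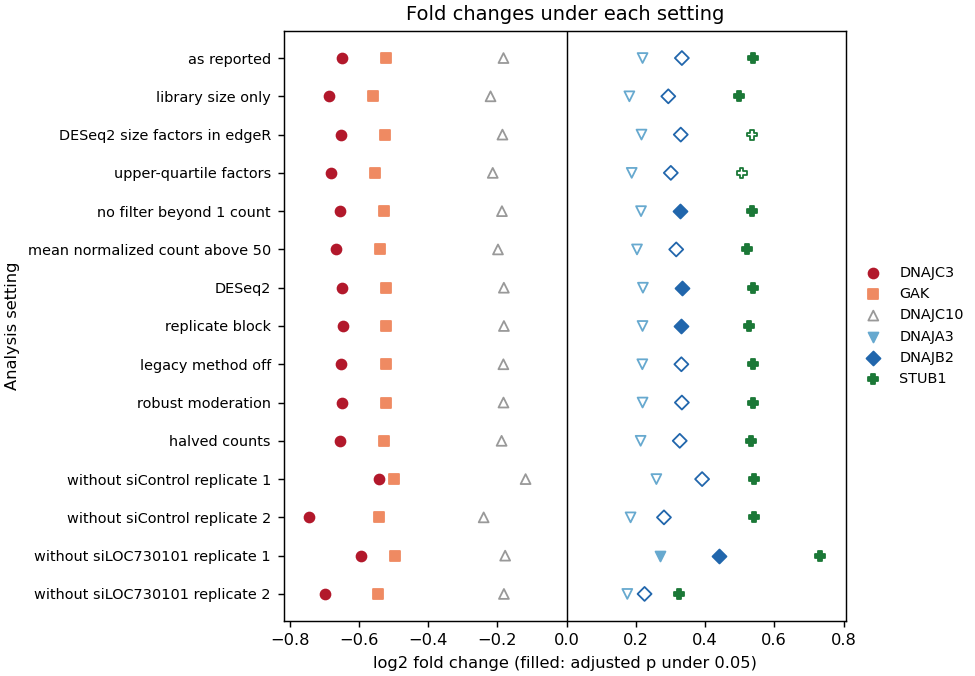
Log2 fold change of 4 DNAJ genes and of GAK and STUB1 in the analysis as reported and under the 14 alternatives, with filled marks where the adjusted p was under 0.05. DNAJC3 and GAK are filled in every row, DNAJC10 in none, and STUB1 spreads from 0.32 to 0.73 when siLOC730101 libraries are left out.

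LOC730101 was studied for its relation to the microRNA miR-1-3p, and the DNAJ transcripts were therefore searched for its sites. The mature miR-1-3p, from chr20:62554351-62554372 on the plus strand (RefSeq, GRCh38.p14), is shown with its seed, bases 2 to 8, in capitals. The sites shown, with their match to the seed (ACATTCC) in capitals, are from the 3′ UTR of the canonical transcript in a GRCh37 annotation. They belong to 3 of the 4 DNAJ genes in which a match was found. They lie on the plus strand at chr3:132257159-132257186 (DNAJC13), chr13:43686006-43686033 (DNAJC15), chr20:62563175-62563202 (DNAJC5, site 1) and chr20:62563784-62563811 (DNAJC5, site 2), on GRCh37.

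miR-1-3p: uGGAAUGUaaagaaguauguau
DNAJC13: ccagtgccaagtccACATTCCtccagct
DNAJC15: tctacttgtcaaaaACATTCCatgaatt
DNAJC5, site 1: tgtctgtgttgtggACATTCCgcggcat
DNAJC5, site 2: tgaggtcgttctccACATTCCttccagc

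DNAJ genes with ACATTCC in this 3′ UTR were 4 of 44 with a 3′ UTR (9.09%), beside 12% of all 18935 genes. The site of DNAJC15, a relative of DNAJC19 in the mitochondrial membrane, was followed by A and makes an 8mer, and the other sites shown were 7mers. In DNAJC3, the gene that fell, ACATTCC was not found in the 3′ UTR of the canonical transcript. Other types of site and other transcripts were not searched, so a lack of sites in DNAJC3 is not shown. The log2 fold changes were -0.15 for DNAJC5, 0.0041 for DNAJC13 and 0.0038 for DNAJC15. The median of the 4 genes was -0.075, and that of the 37 tested genes without ACATTCC was 0.048. With 4 genes, this is given as a description.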

How the data were processed

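RNA of 4 libraries of DaroR cells was analysed. Per the labels, reads passed through Trim Galore. The authors deposited raw counts per gene name, made on exons with featureCounts 2.0.1; the header of the table names hg38 and gencode 41. The paper names STAR and hg19, the processing notes BWA and hg38. The command in the header sets no option for read pairs or strand, and of counts from 1 to 20 in a library, 66.0% to 70.1% were even. Reads of mates may thus be counted apart, and the number of fragments would be smaller than the counts.

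Counts were fitted across all genes in R 4.3.3 with edgeR 4.0.16 (filterByExpr, TMM, glmQLFit, condition only), with Benjamini-Hochberg adjustment over all genes tested. DESeq2 1.42.0 was an alternative. CPM values are TMM-normalized. The code was tested on simulated data. Replicates differed beyond sampling noise (chi-square over its degrees of freedom 10.6 for siControl, 13.0 for siLOC730101).

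The members, the role groups and the partner lists were chosen with earlier results of these data known. Genes given in full are members past the adjusted threshold, the 12 with the lowest p among those with a mean normalized count above 50, the highest of each role group per kilobase, and, per partner list, genes past the threshold or the one with the lowest p, with GAK, SEC63, HSCB, HSPA8, HSPA5, HSPA9 and HSPA1A. Other genes were named after their values were seen. Promoters matched 40 of 45 members by symbol. One partner gene and one microRNA site, though counted, are not reported here.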

Additional observations from a re-analysis of the deposited data

How the results depend on the processing

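DNAJC3 stayed the 1 DNAJ gene lower at the adjusted threshold in each of the 14 alternatives, as did GAK among the partner genes. The number of DNAJ genes higher moved from 0 to 1 without an expression filter, with DESeq2 and with the replicate block, in each case DNAJB2, and ranged from 0 to 3 when libraries were left out, with 3 without siLOC730101 replicate 1. At the unadjusted threshold, the lower genes moved from 2 to 4 with library size only, upper-quartile factors, no expression filter, a mean normalized count above 50 and the replicate block, and ranged from 2 to 4 when libraries were left out, with 4 without siLOC730101 replicate 2; the higher genes ranged from 2 to 5, with 5 without siLOC730101 replicate 1. The partner genes higher were 1 as reported, 0 with DESeq2 size factors and with upper-quartile factors, 2 without an expression filter, 3 with the replicate block, and 1 to 5 when libraries were left out, with 2 without siControl replicate 1 and 5 without siLOC730101 replicate 1. The median log2 fold change of the DNAJ genes ranged from -0.059, without siLOC730101 replicate 2, to 0.072. The cause was not tested. Leaving out a library leaves 1 sample in a group, which is assumed to vary like the other group.

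Among single genes, the sign changed for DNAJC4 with library size only (-0.024), upper-quartile factors (-0.016) and a mean normalized count above 50 (-0.00015). When libraries were left out, the log2 fold change ranged from -0.16 to 0.18 for DNAJC4, -0.070 to 0.16 for DNAJC30, -0.12 to 0.13 for DNAJC7, -1.08 to 0.95 for DNAJB7, -0.064 to 0.032 for HSPA9 and -0.11 to 0.064 for HSF1. The labels give same-numbered libraries no shared batch, so the numbers were not taken as pairs; the correlation of their deviations was 0.015 over all genes and 0.243 over the DNAJ genes; with the block the genes past the adjusted threshold went from 41 higher and 14 lower to 485 and 167. Without an expression filter they were 324 and 113, and with DESeq2 234 and 63. Members with under 50 normalized counts had standard errors of 0.50 to 1.05, too wide to show changes of the size seen in DNAJC3.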

Other observations

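The table also lists 28 DNAJ pseudogenes, which the choice by name left out. Of these, 17 had 0 counts in all 4 libraries, and their summed counts were 97 to 163 per library. DNAJB6P1, a copy of DNAJB6 on chromosome 11, held most of them, at 124 and 109 in siControl against 93 and 75 in siLOC730101 (log2FC -0.12 ± 0.34 (SE), adjusted p = 0.943 by edgeR). Since DNAJB6 had 4060 to 5068 counts per library, the reads placed on this copy were few beside its own. The other pseudogenes had at most 20 counts in a library.

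The ER chaperones HSP90B1 and HYOU1, which like DNAJC3 act in the ER lumen, both had lower values in each siLOC730101 library than in each siControl library, as did 20.5% of all genes, but passed no threshold. HSP90B1 had 980 and 933 CPM in siControl and 894 and 891 CPM in siLOC730101 (log2FC -0.10 ± 0.067 (SE), adjusted p = 0.640 by edgeR). HYOU1 had 439.7 and 423 CPM in siControl and 391 and 405 CPM in siLOC730101 (log2FC -0.11 ± 0.071 (SE), adjusted p = 0.601 by edgeR). SIL1, an exchange factor of the same compartment, overlapped between the groups, at 74.9 and 78.6 CPM in siControl and 72.6 and 82.3 CPM in siLOC730101 (log2FC 0.012 ± 0.090 (SE), adjusted p = 0.986 by edgeR). These genes were named after their values were seen.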
